A study of Mus musculus with 10 samples.

Results

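Pyruvate oxidation and the citric acid cycle were followed through 33 genes, chosen by symbol and matched to their Ensembl identifiers among the 22891 genes of the table. All 33 were found, and all 33 passed the filter on low values. The tested group was 5 ovaries labelled Uba3 cKO, and it was set against 5 ovaries labelled Control. Every library came from a whole ovary of a 3-week-old mouse of the C57/Bl6/N;129SvEv7 strain, with no hormone stimulation in either group. The labels give neither the Cre driver nor the deleted exons of Uba3, which with its partner Nae1 forms the enzyme that activates NEDD8, a small protein joined to other proteins much as ubiquitin is. Values are the authors' normalized log2 levels. A difference of 1 is a doubling only where the transform, which is not named, does not shrink the values. Each p-value reflects variation among these ovaries, and the labels do not say that the ovaries came from separate animals.

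Pyruvate enters mitochondria through a carrier and is turned into acetyl-CoA by the pyruvate dehydrogenase complex. Kinases switch that complex off by phosphorylating its first enzyme, and phosphatases switch it on again. Acetyl-CoA then feeds the citric acid cycle, which hands electrons to the respiratory chain. Growing oocytes use glucose poorly and depend on pyruvate that granulosa cells supply, and in mice the loss of Pdha1 from oocytes impairs their meiotic maturation. The series asks, by its title, how NEDD8 conjugation bears on mitochondrial gene transcription and on oocytes, and these nuclear genes encode enzymes that work mostly in the same organelle.

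The libraries were alike in overall level, with medians between 6.29 and 6.44. Uba3 itself stood at 10.12 ± 0.069 in Uba3 cKO ovaries and 10.12 ± 0.18 in control ovaries (SD, n = 5 each; exact two-sided permutation p = 1), so its level in the whole organ did not check the labels. All 35 oocyte markers and all 14 granulosa markers passed the filter, while 1 of the 4 skeletal muscle markers found did. The mean oocyte marker level ran from 9.05 to 9.79 in Uba3 cKO ovaries and from 9.22 to 9.89 in control ovaries. Control replicate 3 stood apart from the other libraries: the slope of its deviations on log2 transcript length was -0.18, against -0.074 to 0.069 in the other 9, and its library quality weight was 0.256, against 0.873 to 1.52. It also had the highest level of the mitochondrially encoded protein genes, 11.98, where Uba3 cKO ovaries ran from 11.34 to 11.41 and the other control ovaries from 11.34 to 11.66. In whole ovaries, fewer cells of a type and less RNA per cell cannot be told apart.

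Transcripts of the 33 genes were abundant. Their levels ran from 7.95 for Mpc1 to 12.27 for Mdh2 on the log2 scale before any correction for length. Divided by the longest protein-coding transcript, the order began with Mdh2, the mitochondrial malate dehydrogenase, at a log2 level per kb of 11.72. Mdh1, the cytosolic malate dehydrogenase, followed at 11.00, and Idh3g, a regulatory subunit of the NAD-dependent isocitrate dehydrogenase, at 10.86. At the low end stood Pdp1 at 7.64, Pdk4 at 6.97 and Pdp2 at 5.75, a kinase and both phosphatases of the pyruvate dehydrogenase complex. Neighbours in this order were mostly closer than their spread over the 10 libraries, as with Sdhd at 10.70 ± 0.073 and Sdhb at 10.68 ± 0.11 (SD). The order was also made with the median length of the protein-coding transcripts in place of the longest. Sdhc then moved to place 5 where it had held place 18, and Idh1 to place 3 where it had held place 13. Idh3g moved from place 3 to place 8, and Pdp1 from place 31 to place 25. Mdh2 and Mdh1 kept the first 2 places and Pdk4 and Pdp2 the last 2.

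**Figure D1:**
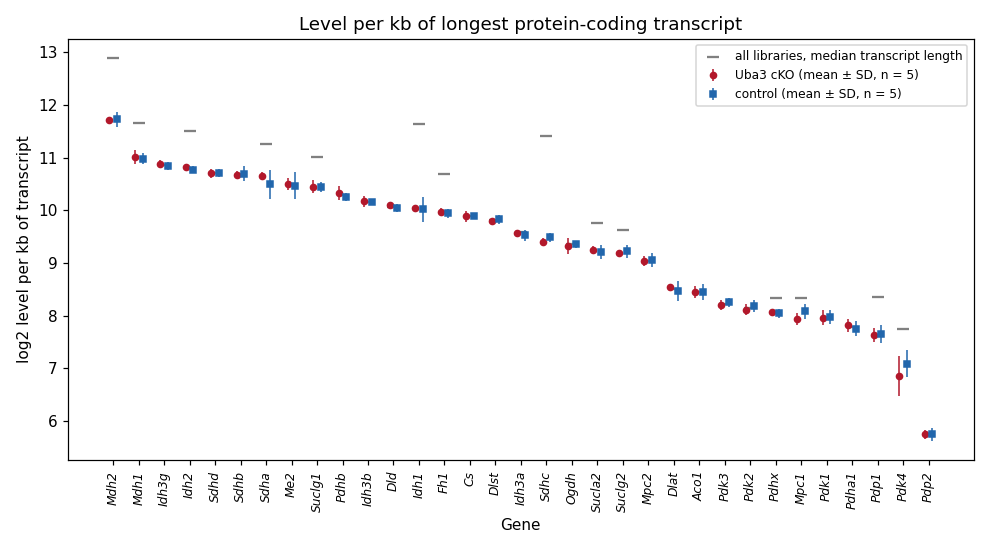
Log2 level per kb of the longest protein-coding transcript for the 33 genes, highest first, as mean ± SD over 5 Uba3 cKO (circles) and 5 control (squares) libraries. Grey dashes give the mean of all libraries with the median transcript length. Mdh2 leads at 11.72 and Pdp2 is last at 5.75, and group means lie within 0.24 log2 units of each other for every gene.

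No gene of the set was called between Uba3 cKO and control ovaries. Of the 33 genes, 0 passed an adjusted p of 0.05 by limma over 15629 genes, where 0 of all genes passed (0.00%). At an unadjusted p under 0.05 there were 0 of 33, against 280 of all tested genes (1.79%). In 0 of 33 genes were the libraries of the groups free of overlap, against 50 of all tested genes (0.320%). The mean was higher in Uba3 cKO ovaries for 19 genes and lower for 14. The median log2 difference was 0.0053, against 0.00034 over all genes, and single differences ran from -0.24 for Pdk4 to 0.16 for Sdha.

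The spread between ovaries was small enough to bound most of these differences. For 28 of 33 genes the 95% interval stayed inside a band of 0.25 log2 units either side of 0, against 51.2% of all tested genes. It stayed inside 0.5 units for 32 of 33, Pdk4 being the exception, against 94.9% of all genes. The SD over the 10 libraries had a median of 0.106 for the 33 genes and of 0.137 for all genes. The 33 genes also had higher levels, with a median of 10.91 against 8.68. The part of level in their smaller spread was not tested. Such bounds hold for whole ovaries and not for changes confined to a few of the cells.

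**Figure D2:**
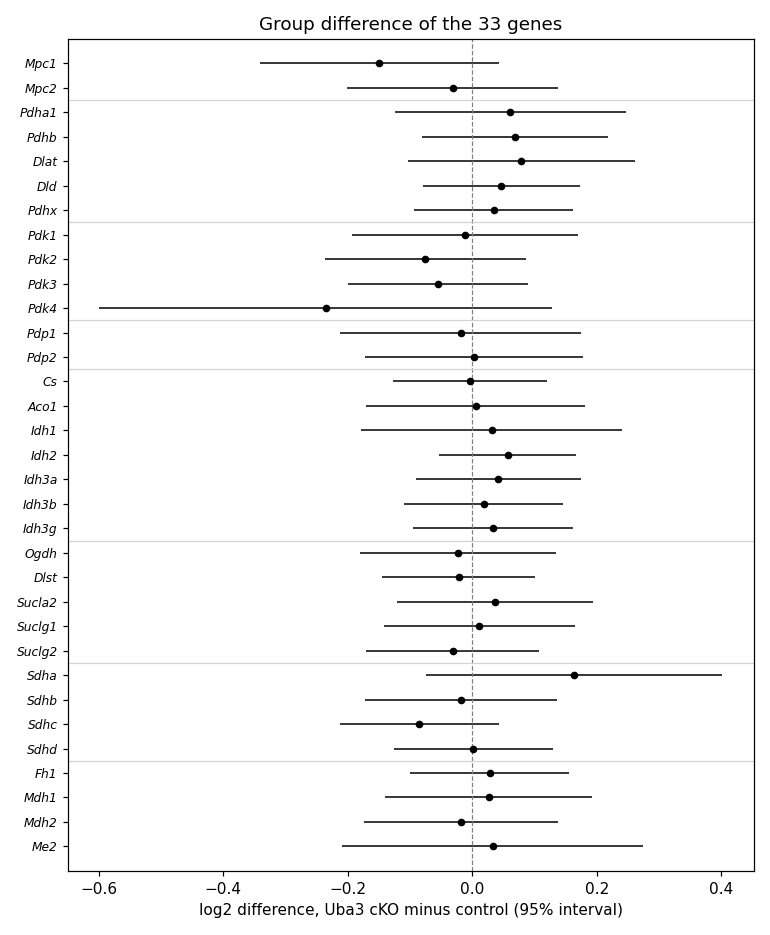
Log2 difference of each of the 33 genes, Uba3 cKO minus control (5 libraries each), with the 95% interval from the limma fit; grey lines part the steps of the pathway. Every interval includes 0, and the interval of Pdk4 is the widest, from -0.60 to 0.13.

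Entry of pyruvate was represented by the carrier subunits Mpc1 and Mpc2, which work as a pair in the inner membrane. Mpc1 (ENSMUSG00000023861) had log2 levels of 7.99, 7.72, 7.90, 7.79 and 7.96 in Uba3 cKO ovaries, against 7.88, 7.99, 7.91, 8.19 and 8.14 in control ovaries. The highest values belonged to control replicates 4 and 5, and the groups overlapped. Its difference of -0.15 (standard error 0.089) had the smallest p of the 33 genes, 0.118 unadjusted, with an adjusted p of 1.0 by limma. With library quality weights the difference was -0.19 (unadjusted p = 0.0419 by limma), and it was not called. Mpc2 (ENSMUSG00000026568) had 9.16, 8.96, 9.17, 9.02 and 9.02 in Uba3 cKO ovaries, against 9.20, 9.09, 9.27, 8.96 and 8.97 in control ovaries. Its values were interleaved between the groups. Per kb, Mpc2 exceeded Mpc1 in every library, by 0.96 to 1.18 log2 units in Uba3 cKO ovaries and by 0.68 to 1.27 in control ovaries.

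The pyruvate dehydrogenase complex had the higher mean in Uba3 cKO ovaries in all 5 genes, with differences of 0.034 to 0.079 and unadjusted p-values of 0.342 or more. Pdhb (ENSMUSG00000021748), the beta subunit of the first enzyme, had 10.96, 10.80, 11.08, 10.78 and 10.99 in Uba3 cKO ovaries, against 10.89, 10.81, 10.74, 10.93 and 10.89 in control ovaries. Dlat (ENSMUSG00000000168), the acetyltransferase core, had 10.46, 10.59, 10.58, 10.52 and 10.63 in Uba3 cKO ovaries, against 10.66, 10.49, 10.16, 10.57 and 10.52 in control ovaries. The value of control replicate 3 lay 0.31 below every other library, and without it the Dlat difference of 0.079 became -0.0013. Pdha1 (ENSMUSG00000031299), the X-linked alpha subunit that the kinases phosphorylate, had 9.19, 9.43, 9.34, 9.46 and 9.19 in Uba3 cKO ovaries, against 9.46, 9.21, 9.07, 9.23 and 9.34 in control ovaries. In Pdhb and Pdha1 as well, control replicate 3 was the lowest library, and the groups overlapped. Dld, the dihydrolipoamide dehydrogenase shared with other 2-oxoacid complexes, stood at 11.44 ± 0.069 in Uba3 cKO ovaries and 11.39 ± 0.080 in control ovaries (SD, n = 5 each). Pdhx, which binds Dld to the core, was among the steadiest genes, at 9.40 ± 0.028 in Uba3 cKO ovaries and 9.37 ± 0.083 in control ovaries.

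The pyruvate dehydrogenase kinases had the lower mean in Uba3 cKO ovaries in all 4 genes, with none called. The differences of Pdk1, Pdk2 and Pdk3 were -0.012, -0.075 and -0.055. That of Pdk1 became 0.028 without Uba3 cKO replicate 4 and -0.073 without control replicate 3. Pdk4 (ENSMUSG00000019577), the isoform known for its induction by fasting, had 8.51, 8.32, 9.27, 8.45 and 8.72 in Uba3 cKO ovaries, against 9.16, 8.51, 9.01, 8.80 and 8.97 in control ovaries. It was the most variable of the 33 genes, with an SD of 0.324 over the 10 libraries. Uba3 cKO replicate 3 held the highest value of all, and the other 4 Uba3 cKO values lay below 4 of the 5 control values. The log2 difference was -0.24 (standard error 0.17, unadjusted p = 0.184, limma adjusted p = 1.0). Leaving out 1 library at a time, it ran from -0.39 without Uba3 cKO replicate 3 (unadjusted p = 0.0107, adjusted p = 1.0) to -0.15 without Uba3 cKO replicate 2 (unadjusted p = 0.390, adjusted p = 1.0).

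The other kinases varied less. Pdk1 (ENSMUSG00000006494) had 10.28, 10.25, 10.49, 10.18 and 10.50 in Uba3 cKO ovaries, against 10.41, 10.38, 10.10, 10.41 and 10.44 in control ovaries. Pdk2 (ENSMUSG00000038967) had 9.31, 9.13, 9.40, 9.32 and 9.23 in Uba3 cKO ovaries, against 9.45, 9.34, 9.50, 9.24 and 9.24 in control ovaries. In both genes the groups overlapped, and the control values of Pdk1 were close together apart from replicate 3, the lowest of all. Pdk3 (ENSMUSG00000035232), which is X-linked, had 9.30, 9.39, 9.32, 9.25 and 9.13 in Uba3 cKO ovaries, against 9.34, 9.31, 9.24, 9.45 and 9.32 in control ovaries. Per kb of the longest transcript, Pdk1 lay 0.35 below to 0.059 above Pdk2 in Uba3 cKO ovaries, so their order was not the same in every library. Per kb, Pdk1 exceeded Pdk4 by 0.64 to 1.36 in Uba3 cKO ovaries and by 0.52 to 1.30 in control ovaries, whereas with median transcript lengths it ran from -0.26 to 0.58 over the 10 libraries.

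The phosphatases that reverse the kinases differed from each other in level more than between groups. Pdp1 (ENSMUSG00000049225) had 9.66, 9.64, 9.71, 9.93 and 9.59 in Uba3 cKO ovaries, against 9.94, 9.64, 9.50, 9.73 and 9.81 in control ovaries. Pdp2 (ENSMUSG00000048371) had 8.11, 8.30, 8.27, 8.25 and 8.35 in Uba3 cKO ovaries, against 8.27, 8.38, 8.04, 8.26 and 8.32 in control ovaries. Control replicate 3 held the lowest value of both. Per kb, Pdp1 exceeded Pdp2 by 1.67 to 2.12 log2 units in Uba3 cKO ovaries and by 1.70 to 2.11 in control ovaries.

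In the first part of the cycle, from citrate to oxoglutarate, 6 of 7 genes had the higher mean in Uba3 cKO ovaries, with differences of at most 0.057. Idh2 (ENSMUSG00000030541), the mitochondrial NADP-dependent isocitrate dehydrogenase, had 11.60, 11.64, 11.66, 11.62 and 11.63 in Uba3 cKO ovaries, against 11.67, 11.53, 11.51, 11.58 and 11.58 in control ovaries. It was the steadiest of the 33 genes, with a range of 0.16 over the 10 libraries. Of the control values 4 lay below every Uba3 cKO value and control replicate 1 above them all, for a difference of 0.057 (standard error 0.051, limma adjusted p = 1.0). Idh1 (ENSMUSG00000025950), the cytosolic enzyme, had 11.19, 11.25, 11.29, 11.32 and 11.19 in Uba3 cKO ovaries, against 11.50, 11.21, 10.85, 11.31 and 11.22 in control ovaries. Its control values spread on either side of all Uba3 cKO values, with replicate 1 the highest and replicate 3 the lowest.

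The NAD-dependent isocitrate dehydrogenase has a catalytic subunit and regulatory subunits. Its catalytic Idh3a stood at 10.93 ± 0.048 in Uba3 cKO ovaries and 10.89 ± 0.11 in control ovaries (SD, n = 5 each). Idh3b stood at 10.86 ± 0.10 in Uba3 cKO ovaries and 10.85 ± 0.038 in control ovaries. Idh3g (ENSMUSG00000002010) had 11.36, 11.19, 11.36, 11.23 and 11.31 in Uba3 cKO ovaries, against 11.26, 11.18, 11.21, 11.25 and 11.38 in control ovaries. None of these subunits separated the groups. Citrate synthase, encoded by Cs, stood at 11.44 ± 0.10 in Uba3 cKO ovaries and 11.44 ± 0.019 in control ovaries. Its control values were the tightest of the 33 genes, from 11.41 to 11.45. Aco1, the cytosolic aconitase that doubles as an iron-responsive RNA-binding protein, stood at 10.39 ± 0.12 in Uba3 cKO ovaries and 10.39 ± 0.15 in control ovaries.

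From oxoglutarate to succinate, 2 of 5 genes had the higher mean in Uba3 cKO ovaries. Ogdh, the first enzyme of the oxoglutarate dehydrogenase complex, stood at 11.38 ± 0.15 in Uba3 cKO ovaries and 11.40 ± 0.062 in control ovaries (SD, n = 5 each). Dlst, the core of that complex, stood at 11.27 ± 0.055 in Uba3 cKO ovaries and 11.29 ± 0.084 in control ovaries. Succinyl-CoA ligase pairs a shared subunit, Suclg1, with Sucla2 for ATP or Suclg2 for GTP. Suclg1 (ENSMUSG00000052738) had 11.09, 10.93, 11.17, 10.92 and 11.15 in Uba3 cKO ovaries, against 11.10, 10.90, 10.98, 11.11 and 11.12 in control ovaries. Sucla2 (ENSMUSG00000022110) had 10.49, 10.35, 10.46, 10.30 and 10.41 in Uba3 cKO ovaries, against 10.42, 10.24, 10.22, 10.57 and 10.38 in control ovaries. Suclg2 (ENSMUSG00000061838) had 10.93, 10.87, 10.97, 10.95 and 10.99 in Uba3 cKO ovaries, against 10.99, 10.93, 10.78, 11.06 and 11.10 in control ovaries. All 3 overlapped between groups. Per kb of the longest transcript, Suclg2 minus Sucla2 ran from -0.15 to 0.052 in Uba3 cKO ovaries and from -0.10 to 0.12 in control ovaries, so with these lengths neither form was higher in every library of a group. With median transcript lengths it ran from -0.26 to -0.058 in Uba3 cKO ovaries, below 0 in every library, and from -0.21 to 0.0084 in control ovaries.

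Succinate dehydrogenase is both a citric acid cycle enzyme and complex II of the respiratory chain, and its 4 subunits differed in how they varied. Sdha (ENSMUSG00000021577), the flavoprotein that oxidises succinate, had 12.19, 12.08, 12.22, 12.21 and 12.26 in Uba3 cKO ovaries, against 12.33, 12.06, 11.58, 12.05 and 12.12 in control ovaries. Control replicate 3 lay 0.47 below every other library, and control replicate 1 was the highest. The difference of 0.16 (standard error 0.11, unadjusted p = 0.161, limma adjusted p = 1.0) was the highest of the 33 genes, and without control replicate 3 it was 0.052. Without control replicate 1 it was 0.24 (unadjusted p = 0.0379, adjusted p = 1.0). With each library's slope on transcript length in the fit it was 0.12 (adjusted p = 1.0). Sdhc (ENSMUSG00000058076), a membrane anchor, had 11.10, 10.98, 11.16, 11.03 and 11.08 in Uba3 cKO ovaries, against 11.20, 11.05, 11.27, 11.16 and 11.10 in control ovaries.

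In Sdhc, and in the remaining subunits, control replicate 3 held the highest value of all libraries. It read 11.27 for Sdhc, 11.12 for the iron-sulfur subunit Sdhb and 11.13 for the anchor Sdhd. Subunits of 1 complex lay on opposite sides of the other libraries in it. The longest protein-coding transcripts were 2900 bases for Sdha, 1142 for Sdhb, 3171 for Sdhc and 1231 for Sdhd. The median protein-coding lengths were 1811 bases for Sdha, 1142 for Sdhb, 815 for Sdhc and 1231 for Sdhd. The length slope of control replicate 3 was -0.18, and its part in these values was not tested. Sdhb stood at 10.87 ± 0.073 in Uba3 cKO ovaries and 10.88 ± 0.14 in control ovaries, and Sdhd at 11.00 ± 0.081 in Uba3 cKO ovaries and 11.00 ± 0.074 in control ovaries (SD, n = 5 each).

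The promoters of Sdha and Sdhd are shown because these subunits of 1 complex behaved unlike each other while sharing a sequence feature. Both held GCGCANGCG, part of the palindromic site bound by NRF1, a regulator of nuclear genes for respiration. The letters below are the 250 bases before the RefSeq transcript start (GRCm38.p6), 5′ to 3′ on the gene's strand, with each match in capitals. That build is not the one named for the authors' alignment.
Sdha, chr13:74350241-74350490, minus strand: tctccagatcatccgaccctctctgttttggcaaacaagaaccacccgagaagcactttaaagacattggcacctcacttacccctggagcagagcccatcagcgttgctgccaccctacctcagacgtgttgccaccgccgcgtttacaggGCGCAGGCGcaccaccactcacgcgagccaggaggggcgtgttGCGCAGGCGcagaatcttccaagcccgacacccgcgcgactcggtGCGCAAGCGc
Sdhd, chr9:50603850-50604099, minus strand: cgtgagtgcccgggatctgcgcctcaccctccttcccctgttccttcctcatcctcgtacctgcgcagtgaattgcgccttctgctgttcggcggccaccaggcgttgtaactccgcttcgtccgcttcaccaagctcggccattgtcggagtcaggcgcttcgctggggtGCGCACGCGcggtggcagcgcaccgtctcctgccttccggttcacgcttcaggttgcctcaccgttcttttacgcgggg

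In Sdha the matches began at positions -98, -55 and -10 from the start, and in Sdhd at -79. RefSeq promoters of 300 bases, which add the first 50 bases of the transcript, were at hand for 29 of the 33 genes, in 38 windows. Searched on both strands, GCGCANGCG was in 6 of these 38 windows (15.8%; Dld, Ogdh, Sdha, Sdhd and Sucla2), against 6.25% of all 32851 windows. The motif TCAAGGTCA of the ERR nuclear receptors was in 1 (2.63%; Sdhd), against 0.423% of all windows. The CCAAT box was in 24 (63.2%), against 37.4% of all windows. Neither of the longer motifs overlapped the other in the windows of Sdha and Sdhd. These matches describe letters only, and the motifs were chosen after the expression values were seen.

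At the end of the cycle, 3 of 4 genes had the higher mean in Uba3 cKO ovaries. Fh1, fumarate hydratase, stood at 11.37 ± 0.069 in Uba3 cKO ovaries and 11.34 ± 0.086 in control ovaries (SD, n = 5 each). Mdh2 (ENSMUSG00000019179) had 12.27, 12.28, 12.28, 12.15 and 12.30 in Uba3 cKO ovaries, against 12.20, 12.17, 12.52, 12.27 and 12.21 in control ovaries. Mdh1 (ENSMUSG00000020321), which with Mdh2 carries reducing equivalents across the inner membrane, had 12.10, 11.99, 12.19, 11.94 and 12.25 in Uba3 cKO ovaries, against 12.11, 11.88, 12.17, 12.09 and 12.10 in control ovaries. The groups overlapped in both, and control replicate 3 held the highest Mdh2 value. Per kb, Mdh2 exceeded Mdh1 in every library, by 0.59 to 0.83 in Uba3 cKO ovaries and by 0.64 to 0.89 in control ovaries. Me2 (ENSMUSG00000024556), the mitochondrial malic enzyme that returns malate to pyruvate, had 11.88, 11.78, 12.04, 11.79 and 12.02 in Uba3 cKO ovaries, against 12.12, 11.84, 11.43, 11.98 and 11.96 in control ovaries. Control replicate 3 was again the lowest and control replicate 1 the highest, and without control replicate 3 the Me2 difference of 0.032 became -0.076.

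Control replicate 3 held the lowest of the 10 values for 16 of the 33 genes and the highest for 6. Over all tested genes these shares were 25.5% and 23.6%, so the library was extreme in the table at large. The 33 genes leaned lower in it than the table did. Their median deviation from the gene mean was -0.090 there, against -0.0063 for all tested genes. Control replicate 1 held the highest value for 9 of the 33 genes and the lowest for 0. Over all tested genes it held the highest value for 10.03% and the lowest for 8.07%. The SD among control ovaries exceeded that among Uba3 cKO ovaries for 22 of the 33 genes (66.7%), against 62.2% of all tested genes.

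**Figure D3:**
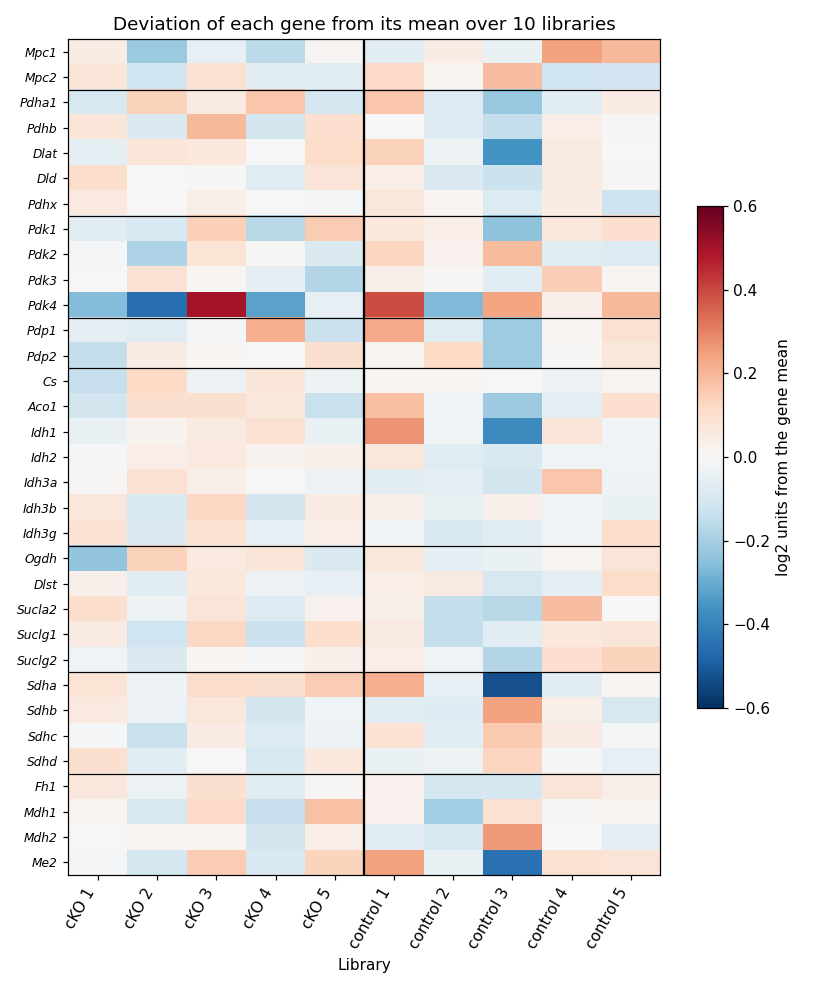
Deviation of each of the 33 genes (rows, in pathway order) from its own mean over the 10 libraries, in log2 units; 5 Uba3 cKO libraries left of the line, 5 control libraries right of it. Control replicate 3 is lowest for Sdha, Me2, Idh1 and Dlat and highest for Sdhb and Mdh2, and Pdk4 varies in both groups.

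Ovaries of both groups differed in how much oocyte RNA they held, and the 33 genes were set against that. The slope of each gene on the mean level of 35 oocyte markers was fitted by limma over all genes with the group in the model, in log2 units of the gene per log2 unit of the marker level. No gene of the set passed an adjusted p of 0.05, where 420 of 15629 genes did (2.69%; 2.27% with slopes above 0 and 0.416% below). With library quality weights 3 of 33 passed, where 6.15% of all genes did (1.68% with slopes below 0). The slope was below 0 for 27 of the 33 genes, against 51.2% of all genes, with a median of -0.11 against -0.0068. With quantile normalization of the libraries it was below 0 for 19 of 33, with a median of -0.039. An unadjusted p under 0.05 was reached by 6 of 33 genes (18.2%), all with slopes below 0, against 19.7% of all genes in either direction and 9.74% with slopes below 0. With quantile normalization it was reached by 3 of 33 (9.09%), against 8.23% of all genes with slopes below 0. Leaving out 1 library at a time, the number was 9 without Uba3 cKO replicate 1 or 5 (27.3%, against 8.01% and 7.38% of all genes below 0) and 4 without Uba3 cKO replicate 2 or control replicate 1 (12.1%, against 8.70% and 7.63%).

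Me2 had the smallest p of these slopes. Its slope was -0.50 (standard error 0.14, limma adjusted p = 0.0763), and -0.33 without control replicate 3 (adjusted p = 0.107). Over the 10 libraries Pearson's r was -0.79 and Spearman's rho -0.83, and r was -0.75 without the libraries farthest from the median marker level, Uba3 cKO replicate 5 and control replicate 1. Pdk1 had a slope of -0.36 (standard error 0.11, adjusted p = 0.0991), with r of -0.81, rho of -0.78 and r of -0.77 without the same libraries. In both genes the 5 libraries with the most oocyte RNA, which include 3 Uba3 cKO ovaries, held the 5 lowest values.

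The other genes with an unadjusted p under 0.05 were Dlat, Suclg1, Pdhb and Sdha, with slopes of -0.32, -0.26, -0.24 and -0.37 and adjusted p-values of 0.165, 0.175, 0.206 and 0.232 by limma. For Dlat r was -0.71 and rho -0.87, with r of -0.62 without the same libraries. For Suclg1 r was -0.77 and rho -0.72, with r of -0.73 without them. The relation of Pdhb had r of -0.71 and rho of -0.61, with r of -0.73 without them. The relation of Sdha had r of -0.56 and rho of -0.64, with r of -0.40 without them. Without control replicate 3 the slopes of Sdha and Dlat were -0.16 and -0.18. These genes were chosen by their slopes in the same libraries, so r and rho are descriptions and carry no p of their own. Genes with slopes above 0 were Mpc2, Sdhb, Pdk2, Mdh2, Cs and Sdhd, none steeper than 0.079.

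**Figure D4:**
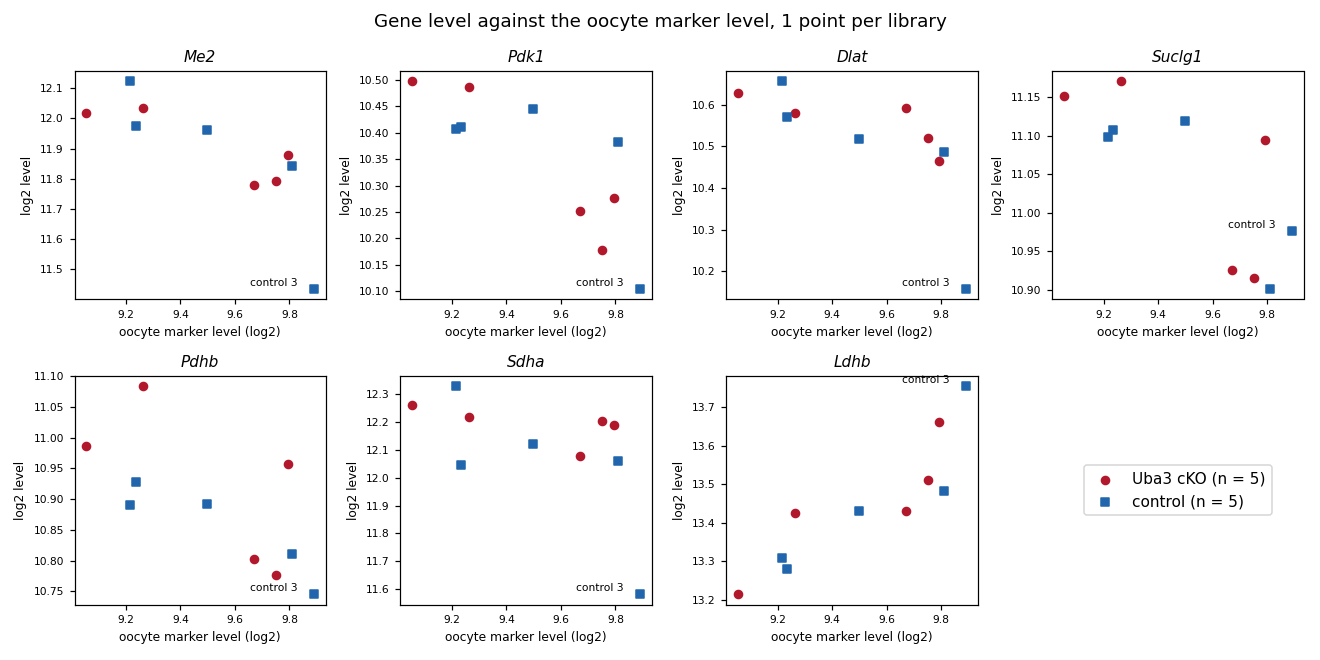
Log2 level of 6 of the 33 genes and of Ldhb (vertical) against the mean log2 level of 35 oocyte markers (horizontal), 1 point per library, Uba3 cKO as circles and control as squares. Me2 and Pdk1 are lower in the libraries with more oocyte RNA and Ldhb is higher, and control replicate 3 has the highest marker level.

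Against the mean level of 14 stroma markers, 0 of 33 genes passed an adjusted p of 0.05, where 225 of all genes did (1.44%; 1.39% with slopes above 0 and 0.0448% below). With library quality weights 6 of 33 passed, all with slopes below 0, where 12.6% of all genes did (5.20% with slopes below 0). In the main fit, with equal weights and all 10 libraries, none of the 33 reached an unadjusted p under 0.05. Of all genes 10.1% did, 6.97% with slopes above 0 and 3.16% below. Quantile normalization brought 1 of the 33 under 0.05, with a slope below 0, against 4.11% of all genes with slopes below 0. The marker median brought 1 in each direction, against 10.2% of all genes. Both marker levels in the fit brought 1 with a slope above 0, against 11.2% of all genes in either direction. Library quality weights brought 10 with slopes below 0 and 1 above, against 31.2% of all genes. Leaving out control replicate 2 brought 1 and control replicate 3 brought 2, all with slopes below 0. Of all genes 2.9% and 5.2% had such slopes. Leaving out control replicate 5 brought 2 with slopes above 0, against 1012 of 15630 genes. Without control replicate 1 an unadjusted p under 0.05 was reached by 5 genes (15.2%), all with slopes below 0. Of all genes 13.0% reached it there, and 4.47% with slopes below 0. The smallest p belonged to Mdh1, with a slope of -0.25 (standard error 0.13, limma adjusted p = 0.583), followed by Pdhb at -0.22, Suclg1 at -0.22, Mpc1 at -0.27, Pdha1 at 0.26 and Idh3g at -0.18. For these 6 genes the size of r over the 10 libraries was between 0.56 and 0.65, and without Uba3 cKO replicates 2 and 4, the farthest from the median, between 0.21 and 0.53. The size of Spearman's rho was 0.50 to 0.64.

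Genes next to the pathway were read from the same fits, 51 of them in 7 groups. Between Uba3 cKO and control ovaries 0 were called and 0 were at an unadjusted p under 0.05, with the higher mean in Uba3 cKO ovaries for 25. Anaplerosis and malic enzymes had the higher mean in 1 of 8, the carriers and citrate users in 6 of 7 and the lipoate and iron-sulfur suppliers in 5 of 12. The smallest p-values belonged to the following 4 genes. Me3, a mitochondrial malic enzyme, stood at 10.61 ± 0.12 in Uba3 cKO ovaries and 10.74 ± 0.097 in control ovaries (SD, n = 5 each). Esrra, a nuclear receptor that drives genes of oxidation, stood at 8.37 ± 0.13 in Uba3 cKO ovaries and 8.23 ± 0.12 in control ovaries. Ppara, a receptor that drives fatty acid oxidation, stood at 7.15 ± 0.20 in Uba3 cKO ovaries and 6.89 ± 0.35 in control ovaries. Pdpr, the regulatory subunit of pyruvate dehydrogenase phosphatase, stood at 9.21 ± 0.24 in Uba3 cKO ovaries and 8.86 ± 0.63 in control ovaries. Pdpr read 7.76 in control replicate 3, the lowest of the 10 libraries by 1.04. Without that library the difference of Pdpr was 0.075, against 0.35 with it, and that of Ppara was 0.11, against 0.26 with it.

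Lactate dehydrogenase converts lactate and pyruvate into each other, a step before the carrier. Ldhb, the heart-type subunit, was the only 1 of the 51 genes called on the oocyte marker level (2.69% of all genes were called). It had 13.66, 13.43, 13.43, 13.51 and 13.21 in Uba3 cKO ovaries, against 13.31, 13.48, 13.75, 13.28 and 13.43 in control ovaries. Its values followed the oocyte markers in both groups and did not separate them. The slope was 0.48 (standard error 0.11, limma adjusted p = 0.0492), with r of 0.88 and rho of 0.95, and r of 0.80 without Uba3 cKO replicate 5 and control replicate 1. The call was lost without any 1 of the 10 libraries, with adjusted p-values of 0.0603 to 0.206. Ldha, the muscle-type subunit, had a slope of -0.26 (adjusted p = 0.220).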

How the data were processed

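Per the labels' protocols, whole-ovary RNA went into TruSeq libraries, read on a NovaSeq. fastp, STAR, featureCounts, DESeq2 and the build GRCm39 are named, per the submitters' processing notes, with no versions given. The authors deposited 1 log2 value per gene and library, from -0.21 to 20.19, for 22891 genes; the transform is not named, no counts could be recovered, and the depth behind each value is unknown. If the transform shrinks low values, differences of low genes are understated. Symbols were found for 22188 identifiers, and transcript lengths came from GENCODE M21 (GRCm38). Columns were tied to samples through the library names that the labels give, and no pair of libraries was identical.

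The filter asked for a mean log2 level of 3.32, which is 10 before logs, and left 15629 genes. Groups and slopes were tested in R 4.3.3 using limma 3.58.1, its mean-variance trend and Benjamini-Hochberg adjustment over all kept genes at 0.05. Fits were tested on simulated data. Alternatives changed the filter, scaling, trend, weights, replicate block, covariates and marker summary, and left out each library. The 33 genes and the lists were chosen with earlier results of these data known. Values in every library are given for the 8 genes with the smallest p between groups, up to 6 in each slope fit and isozymes of 1 step; of neighbouring genes, those called or the 4 with the smallest p, and Ldha besides, which was chosen after its values were seen.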

Additional observations from a re-analysis of the deposited data

Results flagged for a closer look

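In 84 groups of 5 libraries, 8 values stood apart from the rest of their group, meaning that the gap to the nearest library, divided by the range of the group, was above 0.71; chance gives about 1 in 20 groups. Control replicate 3 held 4 of them: Pdk1 (0.817), Sdhd (0.776), Mdh2 (0.729) and Pdpr (0.746). The control values of Pdk1 were 10.10 in replicate 3 and 10.38 to 10.44 in the others. The control values of Sdhd were 11.13 in replicate 3 and 10.95 to 10.99 in the others. The remaining flags were Mdh2 in Uba3 cKO replicate 4 (0.751), Pdpr in Uba3 cKO replicate 1 (0.764), Idh3a in control replicate 4 (0.713) and Mdh1 in control replicate 2 (0.726). The genes share libraries, so these flags are not independent of each other. Each group was 1 gene in the Uba3 cKO or in the control ovaries. The scan did not cover every neighbouring gene, so these counts hold for the scanned genes only. Slc25a10 lay outside it, with 10.15 in control replicate 3 and 9.59 to 9.70 in the other control ovaries.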

How the results depend on the processing

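Between Uba3 cKO and control ovaries, 0 of the 33 genes and 0 of the 51 neighbouring genes were called in every one of 19 alternative settings. The replicate block was among them (0 and 0). At most 1 of the 33 reached an unadjusted p under 0.05 in a setting. These were Mpc1 with library quality weights, Pdk4 without Uba3 cKO replicate 3 and Sdha without control replicate 1. Of all genes 2.34%, 2.38% and 2.43% did there. The median difference of the 33 genes ran from -0.0013 to 0.028 over the 19 settings. None of the differences was called, and their sign changed in 65 of 627 comparisons with an alternative; 16 genes kept their sign throughout. On the oocyte marker level, genes of the set called numbered 3 with library quality weights (Me2, Mdh1 and Suclg1; 6.15% of all genes were called), 1 with the marker median (Me2; 3.45%) and 0 otherwise. On the stroma marker level they numbered 6 with library quality weights (12.6% of all genes) and 0 otherwise. Neighbouring genes called on the oocyte level numbered 2 with quantile normalization (1.96% of all genes) and 2 with library quality weights (6.15%). They numbered 0 with the replicate block (0.409% of all genes), 2 with no group term (2.97%) and 3 with the marker median (3.45%). Leaving out 1 library, they numbered 0 to 1 (0.672% to 2.54% of all genes). The causes were not tested. Same-numbered libraries did not deviate together in every pair (correlations from -0.34 to 0.32), so the numbers were not taken as pairs. Depth is unknown, and 5 ovaries a group limit what can be seen.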

Other observations

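Nnt, the mitochondrial transhydrogenase that makes NADPH at the expense of the proton gradient, was close to the filter in every library, with log2 levels from 3.33 to 3.61 in Uba3 cKO ovaries and from 3.39 to 3.55 in control ovaries. As background, the C57BL/6J substrain carries a deletion within Nnt, while the labels name C57/Bl6/N and 129SvEv7. The allele these mice carry was not tested. This gene was among the 51 neighbouring genes and was singled out after its values were seen.

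After Ldhb, the neighbouring genes with the smallest p on the oocyte marker level sloped in both directions, and none passed the threshold. The citrate carrier Slc25a1, which exports citrate from mitochondria, had a slope of 0.37 (standard error 0.094, limma adjusted p = 0.0652). Bckdha, a subunit of the branched-chain 2-oxoacid dehydrogenase, had a slope of -0.51 (standard error 0.16, adjusted p = 0.121). Ogdhl, a relative of oxoglutarate dehydrogenase, had a slope of 0.49 (standard error 0.17, adjusted p = 0.157). The choice of these genes came after a look at their slopes.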
